A study of Trichoderma reesei with 8 samples.

Results

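Transcript levels were followed for 8 genes of *T. reesei*. Of these, 7 encode beta-glucosidases, which act at the last step of cellulose degradation, and the other encodes a putative lactose permease. The genes were chosen by protein ID and are 8 of the 9143 genes in the table. The family 3 beta-glucosidases are *cel3a* (also called *bgl1*, protein ID 76672), *cel3b* (protein ID 121735), *cel3c* (protein ID 82227), *cel3d* (protein ID 46816) and *cel3e* (protein ID 76227). Those of family 1 are *cel1a* (also called *bgl2*, protein ID 120749) and *cel1b* (protein ID 22197). The permease gene has no symbol in the annotation used and is given as TR_3405, after its protein ID 3405. All 8 genes were matched to the RefSeq annotation and all 8 passed the filter on low counts.

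Cellulases release cellobiose from cellulose, and beta-glucosidases split cellobiose into glucose. Part of them is secreted and acts outside the hypha, while others act inside the cell on sugars taken up by transporters. In *T. reesei* the beta-glucosidases not only remove cellobiose, which inhibits the cellulases, but can also form sophorose from it by transglycosylation, a strong inducer of cellulase genes. Lactose is a further inducing sugar.

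The strains were the wildtype QM6a and ∆*ypr2*, a strain derived from QM6a from which the gene of the transcription factor YPR2 was deleted. Each strain was grown with 1% microcrystalline cellulose as carbon source for 72 h at 28 °C, in constant light (1600 lx) or in constant darkness. All 4 groups thus shared medium, temperature and time, and each had 2 biological replicates, called culture 1 and culture 2 here. Growth was not matched, since the study reported much less biomass of ∆*ypr2* than of the wildtype in darkness. In light it found no significant difference in biomass. The part of growth in the strain differences was not tested. The comparisons address how light and YPR2 bear on the transcript levels of these genes on cellulose.

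Library totals were between 16.9 and 22.9 Mio expected counts, so that 1 count equalled 0.0438 to 0.0579 CPM (counts per Mio after scaling of the libraries). The deleted gene *ypr2* had 566 and 548 counts in the wildtype in light, 3040 and 2636 in the wildtype in darkness, 0 and 0 in ∆*ypr2* in light, and 10 and 6 in ∆*ypr2* in darkness. In 1 library, culture 2 of ∆*ypr2* in light, several cellulase transcripts lay apart from the other 3 libraries from light. The transcript of the cellobiohydrolase gene *cel6a* had 181 counts there and 3, 4 and 3 in the others, and the endoglucanase gene *cel5a* had 68 there and 2, 1 and 1 in the others. The cultures of ∆*ypr2* in darkness were the least alike pair, with a median absolute log2 ratio between them of 0.103 over 7342 genes and of 0.065 to 0.070 in the other groups.

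**Figure D1:**
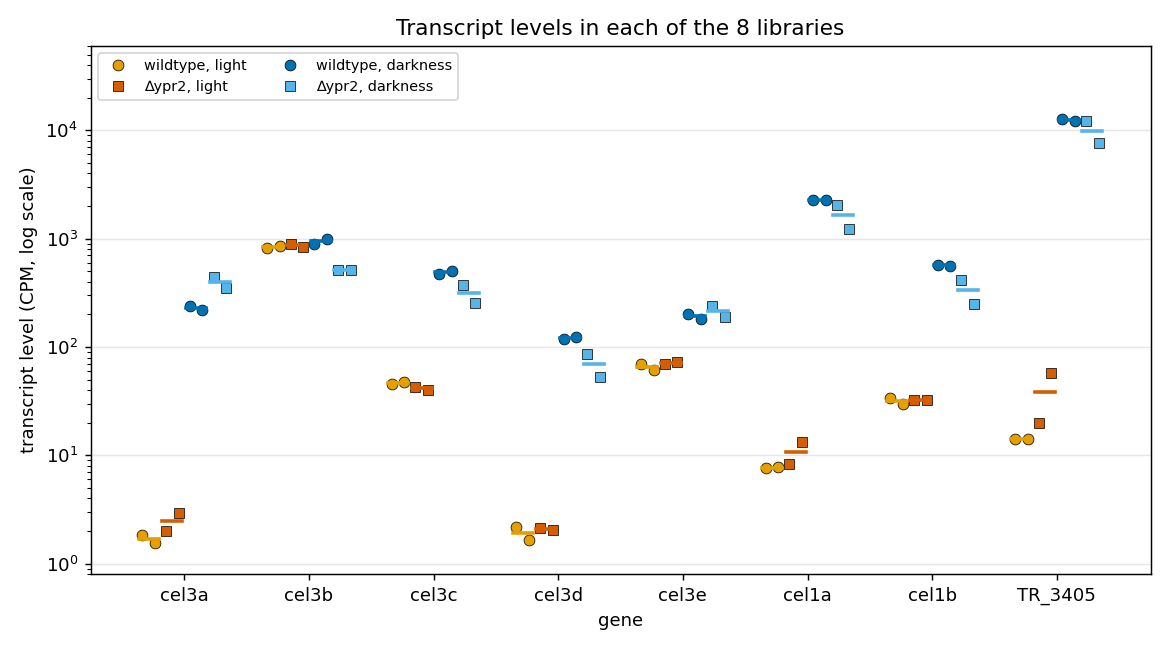
Transcript level of each gene in CPM (logarithmic axis) in each of the 8 libraries. Points are single cultures and the short bars are the means of the 2 cultures of a group. In both strains 7 of the genes were lower in light than in darkness, whereas *cel3b* lay between 514 and 989 CPM throughout.

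Of the secreted enzymes, *cel3a* encodes the major extracellular beta-glucosidase. Its transcript was almost lost in light, at 1.86 and 1.56 CPM in the wildtype against 2.004 and 2.92 CPM in ∆*ypr2*. In darkness it reached 239 and 222 CPM in the wildtype against 443 and 351 CPM in ∆*ypr2*. Both cultures of ∆*ypr2* from darkness were thus above both wildtype cultures. RNA came from whole cultures, so that fewer expressing hyphae and less RNA per hypha cannot be told apart.

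*cel3b* encodes another secreted enzyme and showed a different pattern. In light its transcript was at 823 and 858 CPM in the wildtype against 897 and 833 CPM in ∆*ypr2*. In darkness the wildtype had 897 and 989 CPM, and ∆*ypr2* had 514 and 515 CPM. Hence 6 libraries formed 1 range, and only the 2 libraries of ∆*ypr2* from darkness lay below it.

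The product of *cel3e* is also predicted to be secreted. Its transcript was at 69.1 and 61.6 CPM in the wildtype against 70.1 and 73.4 CPM in ∆*ypr2* in light. In darkness the values were 203 and 180 CPM in the wildtype against 237 and 189 CPM in ∆*ypr2*. The strains overlapped in darkness, while light and darkness were separated in both strains.

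Among the enzymes regarded as intracellular, *cel1a* was the most abundant per kb in darkness. It had 7.71 and 7.73 CPM in the wildtype against 8.30 and 13.4 CPM in ∆*ypr2* in light. In darkness its transcript was at 2273 and 2261 CPM in the wildtype against 2040 and 1231 CPM in ∆*ypr2*. Both wildtype cultures were nearly equal, whereas those of ∆*ypr2* from darkness differed by 1.66-fold.

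The other family 1 gene, *cel1b*, kept a higher basal level in light, with 34.1 and 29.9 CPM in the wildtype against 32.3 and 32.6 CPM in ∆*ypr2*. In darkness it had 573 and 564 CPM in the wildtype, but 419 and 252 CPM in ∆*ypr2*. All 4 libraries from light lay close together, and the wildtype exceeded ∆*ypr2* in darkness in each culture.

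Of the predicted intracellular enzymes of family 3, *cel3c* had 45.5 and 48.0 CPM in the wildtype against 42.9 and 39.9 CPM in ∆*ypr2* in light. In darkness the values were 474 and 500 CPM in the wildtype against 370 and 256 CPM in ∆*ypr2*. The levels in darkness were separated between the strains, with culture 2 of ∆*ypr2* the lowest.

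The transcript of *cel3d* was the scarcest of the 7 per kb in darkness. It was at 2.19 and 1.67 CPM in the wildtype against 2.12 and 2.05 CPM in ∆*ypr2* in light, corresponding to between 29 and 45 counts. In darkness it had 119 and 125 CPM in the wildtype against 87.0 and 53.0 CPM in ∆*ypr2*. Again both ∆*ypr2* cultures were below both wildtype cultures.

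TR_3405, the putative lactose permease, had the widest range. In light it had 14.1 and 14.3 CPM in the wildtype against 19.9 and 57.1 CPM in ∆*ypr2*. In darkness it was at 12650 and 12105 CPM in the wildtype against 12186 and 7654 CPM in ∆*ypr2*. In every library from darkness it was thus among the 4 most abundant of the 9115 transcripts with a known gene length by CPM per kb, with ranks 3 and 2 in the wildtype and 3 and 4 in ∆*ypr2*. In the wildtype it held 1.21 and 1.14% of all counts there, in ∆*ypr2* 1.19 and 0.762%. In light it ranked at 6426 and 6416 in the wildtype and at 5968 and 3714 in ∆*ypr2*.

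For comparison between genes, CPM was divided by gene length in kb (introns included). In the wildtype in darkness the order of these levels was TR_3405 with a mean of 6989 CPM per kb (SD 218, n = 2), *cel1a* with 1140, *cel1b* with 328, *cel3b* with 285, *cel3c* with 167, *cel3a* with 87.6, *cel3e* with 72.9 and *cel3d* with 46.1 CPM per kb. No neighbours in this order overlapped between cultures. In ∆*ypr2* in darkness *cel3a* stood ahead of *cel3c*, at means of 151 and 107 CPM per kb, and *cel1b* overlapped with *cel3b*, *cel3b* with *cel3a*, and *cel3c* with *cel3e*. In light the order in the wildtype was *cel3b* with a mean of 254, *cel3e* with 24.9, *cel1b* with 18.5, *cel3c* with 16.1, TR_3405 with 7.99 and *cel1a* with 3.88 CPM per kb, followed by *cel3d* with 0.731 and *cel3a* with 0.650 CPM per kb, which overlapped. In ∆*ypr2* in light the cultures of TR_3405 were at 11.3 and 32.2 CPM per kb, a range that overlapped with those of *cel3e*, *cel1b* and *cel3c*, and *cel3a* overlapped with *cel3d*.

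The make-up of the beta-glucosidase transcripts changed with light. *cel3b* alone held 78.8 and 80.6% of the summed CPM per kb of the 7 genes in the wildtype in light and 80.5 and 78.5% in ∆*ypr2*. In darkness its share was 12.8 and 14.0% in the wildtype and 8.44 and 12.6% in ∆*ypr2*. In its place *cel1a* held the largest share, 53.9 and 53.3% in the wildtype and 55.7 and 50.2% in ∆*ypr2*, against 1.21 to 2.10% over the 4 libraries from light.

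Both family 1 genes together rose from between 6.58 and 7.96% of the sum in light to between 62.0 and 69.5% in darkness. Between the strains the clearest shift was that of *cel3a*, from 4.28 and 3.96% in the wildtype to 9.15 and 10.8% in ∆*ypr2* in darkness. These shares are descriptions and were not tested.

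The sum itself was 316 and 322 CPM per kb in the wildtype and 337 and 321 in ∆*ypr2* in light. In darkness it was 2121 and 2134 CPM per kb in the wildtype, and 1842 and 1234 in ∆*ypr2*. On the group means, darkness exceeded light by 6.67-fold in the wildtype and 4.67-fold in ∆*ypr2*. Per kb, TR_3405 was at 3.37 and 3.20 times the sum of all 7 beta-glucosidase transcripts in the wildtype in darkness and at 3.74 and 3.50 times in ∆*ypr2*, but at 0.0250 to 0.100 times in light.

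**Figure D2:**
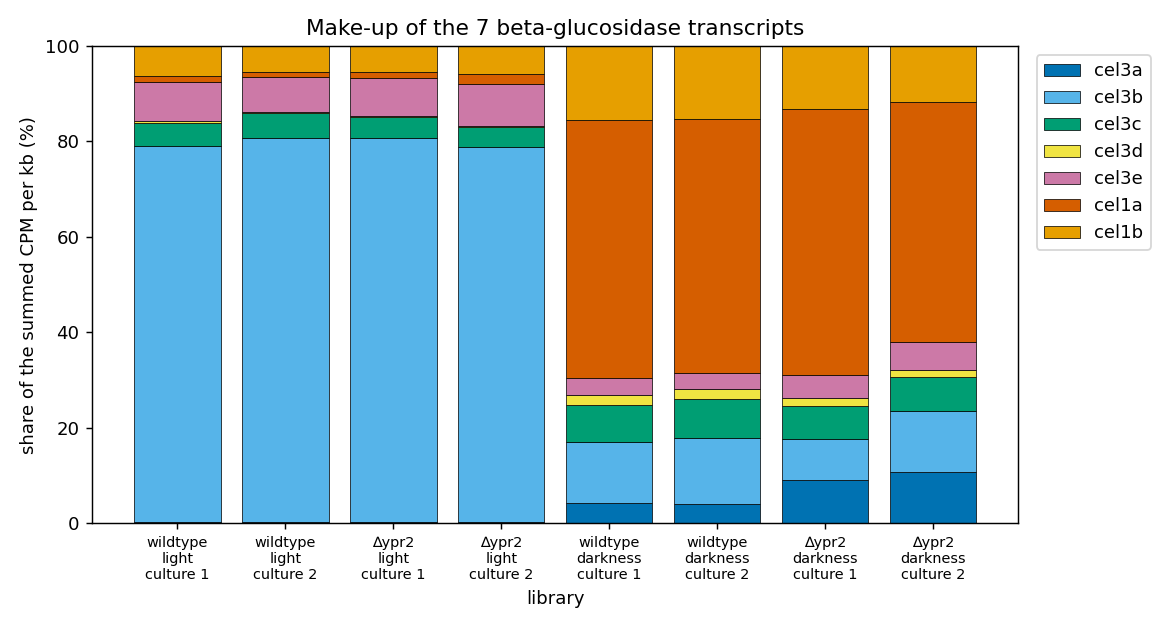
Share of each of the 7 beta-glucosidase genes in their summed level (CPM per kb of gene length, in percent) in each library. *cel3b* held 78.5 to 80.6% in the libraries from light and *cel1a* held 50.2 to 55.7% in those from darkness.

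A gene was called up- or downregulated at an adjusted p under 0.01 in edgeR together with a change of at least 2-fold. Errors of log2 fold changes are standard errors, with 2 cultures in each group.

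Light was compared with darkness in the wildtype first. Here 7 of the 8 genes were downregulated in light, where 14.4% of the 8469 genes tested were downregulated and 23.8% changed in either direction. The median log2 fold change was -5.06 for the 8 genes and 0.01 for all genes tested. All 8 had separate ranges in light and darkness, as had 88.3% of all genes tested.

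The strongest decrease was that of TR_3405, which was 874-fold lower in light (log2 fold change -9.77 ± 0.54, edgeR adjusted p = 2.08e-07). *cel1a* was 293-fold lower (-8.20 ± 0.31, adjusted p = 1.79e-08) and *cel3a* was 134-fold lower (-7.07 ± 0.18, adjusted p = 1.88e-09). *cel3d* followed with 62.7-fold (-5.97 ± 0.28), *cel1b* with 17.8-fold (-4.15 ± 0.21), *cel3c* with 10.4-fold (-3.38 ± 0.15) and *cel3e* with 2.93-fold (-1.55 ± 0.11). For these 4 genes the adjusted p in edgeR was between 6.15e-08 and 1.34e-06. *cel3b* did not pass, with a log2 fold change of -0.17 ± 0.07 (adjusted p = 0.0536).

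In ∆*ypr2* 7 of the 8 genes were again downregulated in light, with 13.3% of all genes tested downregulated and 17.1% changed in either direction. The median log2 fold change was -4.21 for the 8 genes and 0.00 for all genes, and ranges were separate for all 8 genes and for 78.5% of all genes. *cel3a* was 158-fold lower in light (-7.31 ± 0.17, adjusted p = 3.06e-09 in edgeR) and *cel1a* 149-fold lower (-7.22 ± 0.29, adjusted p = 5.59e-08). *cel3d* was 33.4-fold, *cel1b* 10.3-fold, *cel3c* 7.56-fold and *cel3e* 2.96-fold lower. TR_3405 was 256-fold lower (-8.00 ± 0.49, adjusted p = 7.97e-07), and its log2 fold change was -8.96 without culture 2 and -7.44 without culture 1 of ∆*ypr2* in light. Opposite to the other genes, *cel3b* was higher in light by 1.68-fold (0.75 ± 0.07, adjusted p = 1.35e-05 in edgeR), below the 2-fold limit of a call.

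**Figure D3:**
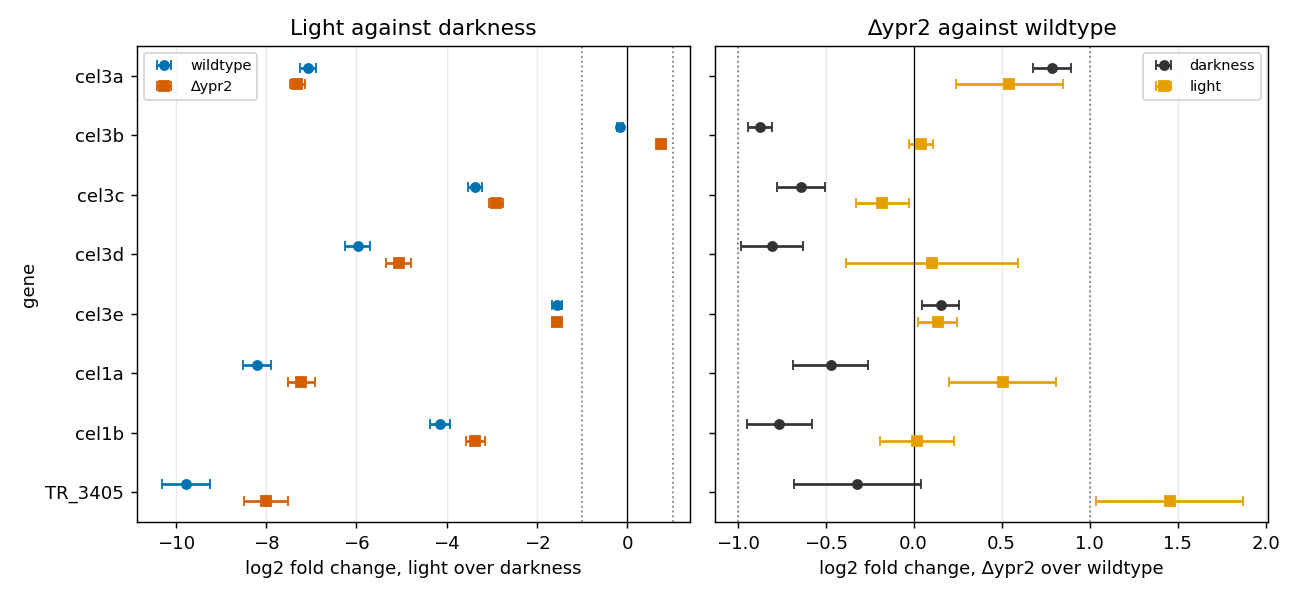
log2 fold changes with standard errors (horizontal bars), for light over darkness in each strain (left) and for ∆*ypr2* over the wildtype in each condition (right). Dotted lines mark 2-fold. The differences between light and darkness of 7 genes lie beyond 2-fold in both strains, whereas those between strains are within 2-fold except for TR_3405 in light (1.45 ± 0.42).

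The comparison of ∆*ypr2* with the wildtype in darkness addresses the deletion effect under the condition in which 7 of them are most abundant. None of the 8 genes was called in edgeR, against 15.7% of all genes tested, and the count was also 0 with DESeq2, limma-voom and the exact test of edgeR. At an unadjusted p under 0.05 there were 5 of 8 genes, against 68.8% of all genes. The median log2 fold change was -0.56 for the 8 genes and 0.02 for all genes. Groups did not overlap for 6 of the 8 genes and for 82.1% of all genes.

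Without the limit of 2-fold, 5 of the 8 genes had an adjusted p under 0.01, against 52.4% of all genes (26.9% higher and 25.5% lower). *cel3a* was the 1 gene with a higher transcript level in ∆*ypr2*, by 1.72-fold (0.78 ± 0.11, adjusted p = 0.000189 in edgeR). Its count relative to that of *cel3b*, which does not depend on the scaling of libraries, was 0.266 and 0.224 in the wildtype and 0.861 and 0.681 in ∆*ypr2*. Relative to *cel1b* it was 0.416 and 0.393 in the wildtype and 1.06 and 1.39 in ∆*ypr2*. On both ratios the strains were separated. However, *cel3b* and *cel1b* were themselves lower in ∆*ypr2* in darkness, so these ratios are no separate support for the higher level of *cel3a*.

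The 4 genes with lower levels were *cel3b* (-0.87 ± 0.07, adjusted p = 5.04e-06 in edgeR), *cel3d* (-0.81 ± 0.18, adjusted p = 0.00298), *cel1b* (-0.76 ± 0.18, adjusted p = 0.00493) and *cel3c* (-0.64 ± 0.14, adjusted p = 0.00263). For *cel1a* the log2 fold change was -0.47 ± 0.21 (adjusted p = 0.0792), for TR_3405 -0.32 ± 0.36 (0.458) and for *cel3e* 0.15 ± 0.10 (0.226). With all libraries these 3 genes did not pass. For *cel1a* this depended on culture 1 of ∆*ypr2*, without which the log2 fold change was -0.88 (adjusted p = 0.000408), while it was -0.14 without culture 2. TR_3405 was at -0.69 and -0.01 without culture 1 and culture 2, respectively, and *cel3e* at -0.01 and 0.32 (adjusted p = 0.00739 for the latter).

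Between the cultures of ∆*ypr2* from darkness, the log2 ratio of culture 2 to culture 1 was 0.00 for *cel3b*, -0.34 for *cel3a* and -0.32 for *cel3e*, but -0.53 for *cel3c*, -0.67 for TR_3405, -0.72 for *cel3d*, -0.73 for *cel1a* and -0.74 for *cel1b*. The part of this spread in the decreases was not tested, and *cel3b* was the gene with nearly the same value in both cultures. Without culture 1 the log2 fold changes upon deletion were -1.17 for *cel1b* and -1.20 for *cel3d*, while without culture 2 they were -0.43 and -0.48. *cel3b* was at -0.87 and -0.86 and *cel3a* at 0.61 and 0.95 without culture 1 and culture 2, respectively.

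In light none of the 8 genes was called between ∆*ypr2* and the wildtype in edgeR, against 0.52% of all genes tested. The count was 0 with DESeq2 and limma-voom and 1 with the exact test of edgeR, and 1 gene had an unadjusted p under 0.05, against 17.3% of all genes. The median log2 fold change was 0.12 for the 8 genes and 0.00 for all genes, and 5 of the 8 genes had separate ranges, as had 53.3% of all genes.

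The gene found by the exact test was TR_3405. Its level was 2.74-fold higher in ∆*ypr2* (1.45 ± 0.42), with an unadjusted p = 0.00682 and an adjusted p = 0.0923 in edgeR's quasi-likelihood test and an adjusted p = 1.11e-04 in its exact test. Both ∆*ypr2* cultures were above both wildtype cultures, at 358 and 1252 counts against 257 and 247 counts. Without culture 2 of ∆*ypr2*, the library that stood apart, the log2 fold change was 0.50 (adjusted p = 0.577), and without culture 1 it was 2.01 (adjusted p = 0.00778). Over all alternatives the adjusted p ranged from 1.11e-04 to 0.577.

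Next to it, *cel3a* had a log2 fold change of 0.54 ± 0.30 (adjusted p = 0.413 in edgeR) and *cel1a* of 0.51 ± 0.30 (adjusted p = 0.445). The other 5 genes were between -0.18 for *cel3c* and 0.14 for *cel3e*. Without culture 2 of ∆*ypr2* the values were 0.23 for *cel3a* and 0.11 for *cel1a*.

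In culture 2 of ∆*ypr2* in light, TR_3405 was at 3.55-fold, *cel1a* at 1.69-fold and *cel3a* at 1.61-fold the mean of the other 3 libraries from light. The other 5 beta-glucosidase genes were between 0.878-fold and 1.10-fold of that mean. For the cellulase transcripts of the same library the factor was 44.1 for *cel6a*, 41.7 for *cel5a*, 2.36 for the cellobiohydrolase gene *cel7a* and 1.89 for the endoglucanase gene *cel7b*. The lytic polysaccharide monooxygenase genes *cel61a* and *cel61b* and the endoglucanase gene *cel12a* had 55, 32 and 18 counts there and 0 to 2 counts in each of the others. The endoglucanase gene *cel5b* was at 1.06-fold.

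Expressed as a percentage of the mean of the wildtype in darkness, TR_3405 was at 0.461% in this library and at 0.114, 0.115 and 0.161% in the other 3 from light. For *cel6a* these values were 0.171% and 0.00340 to 0.00479%. The part of this library's cellulase transcripts in the value of TR_3405 was not tested. TR_3405, *cel1a*, *cel3a* and 7 of the 8 cellulose degrading enzymes were thus at 1.61-fold or more of the mean of the other 3 libraries, whereas *cel5b* was not.

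**Figure D4:**
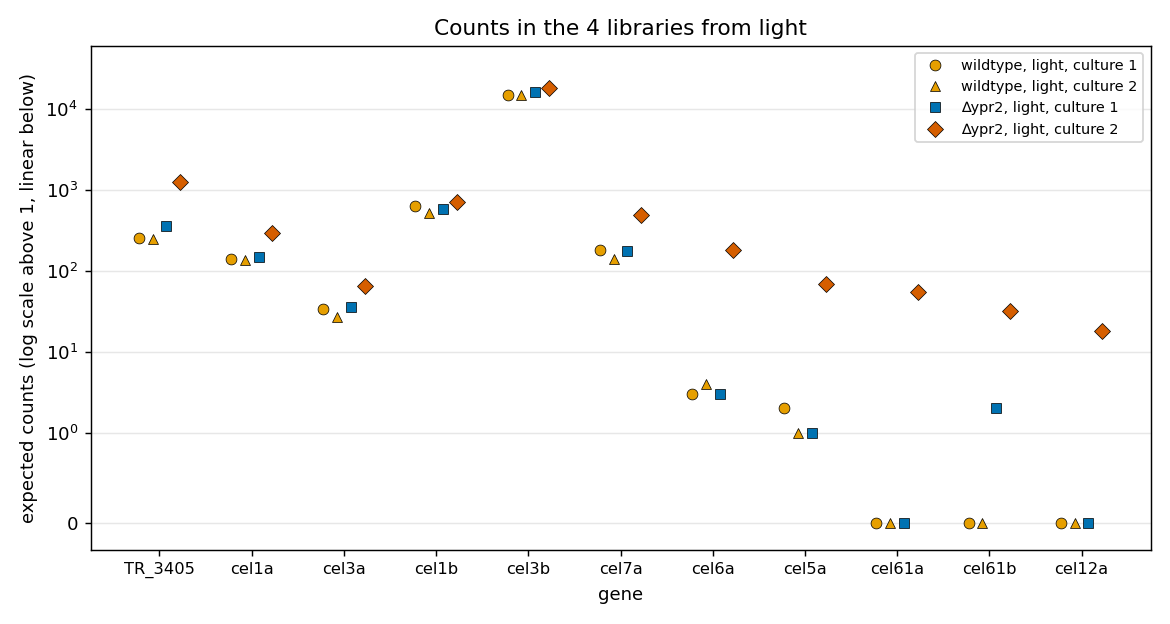
Expected counts (logarithmic axis above 1 and linear below) of TR_3405, 4 beta-glucosidase genes and 6 cellulase genes in the 4 libraries from light. Culture 2 of ∆*ypr2* (diamonds) is above the other 3 libraries for TR_3405 with 1252 counts and for *cel6a* with 181 counts, while *cel3b* lay between 14878 and 18267 counts in all of them.

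The effect of the deletion in light minus that in darkness was tested as an interaction. None of the 8 genes was called in edgeR, DESeq2 or limma-voom, against 14.3% of all genes in edgeR, and 5 had an unadjusted p under 0.05, against 58.8% of all genes. *cel3b* had the smallest adjusted p. Its log2 fold change upon deletion was 0.04 in light and -0.87 in darkness, a difference of 0.91 ± 0.10 (adjusted p = 6.68e-05 in edgeR), which is below 2-fold.

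For TR_3405 the difference was 1.77 ± 0.55 (adjusted p = 0.0233 in edgeR), and 0.81 (adjusted p = 0.0693) without culture 2 of ∆*ypr2* in light, with a range of the adjusted p from 6.3e-04 to 0.107 over all alternatives. The values were 0.98 ± 0.37 for *cel1a* (adjusted p = 0.0511), 0.78 ± 0.28 for *cel1b* (0.0402), 0.91 ± 0.52 for *cel3d* (0.169) and 0.46 ± 0.20 for *cel3c* (0.084). For *cel3a* it was -0.24 ± 0.33 (0.568) and for *cel3e* -0.02 ± 0.15 (0.935). Without culture 1 of ∆*ypr2* in darkness the difference was 2.15 for TR_3405, 1.39 for *cel1a*, 1.30 for *cel3d* and 1.19 for *cel1b*. Without culture 2 of that group it was 1.475, 0.657, 0.585 and 0.454, respectively. Without culture 1 of ∆*ypr2* in light the difference for TR_3405 was 2.33.

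The enzymes acting before the beta-glucosidases were described by a list of 8 cellulose degrading enzymes, *cel7a*, *cel6a*, *cel7b*, *cel5a*, *cel12a*, *cel61a*, *cel61b* and *cel5b*. In the wildtype 7 of them were downregulated in light, against 14.4% of all genes tested, and in ∆*ypr2* all 8, against 13.3%. *cel7a*, the major cellobiohydrolase, was at 9.04 CPM (SD 1.36, n = 2) in light and at 10529 CPM (SD 337, n = 2) in darkness in the wildtype. In darkness 1 of the 8 was upregulated in ∆*ypr2* (*cel5b*, 1.88 ± 0.16, adjusted p = 8.06e-06 in edgeR) and none was downregulated, where 15.7% of all genes were called in either direction. Their median log2 fold change in this comparison was -0.26, that of all genes 0.02. In light 0 of the 8 were called between the strains in edgeR, with 5 at an unadjusted p under 0.05, and 0 with DESeq2 and limma-voom. Over all genes these shares were 0.52% called and 17.3% at an unadjusted p under 0.05 in edgeR. The values of the list in light include culture 2 of ∆*ypr2*, the library that stood apart, for example with 181 counts of *cel6a* against 3 in culture 1.

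The endoglucanase gene *cel5b* was, like *cel3b*, not called for light in the wildtype, with 85.5 CPM (SD 0.430, n = 2) in light and 74.2 CPM (SD 8.03, n = 2) in darkness (0.20 ± 0.16, adjusted p = 0.28 in edgeR). It differed from *cel3b* in ∆*ypr2* in darkness, with 274 CPM (SD 75.8, n = 2). The change of *cel3b* there was a decrease.

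Other genes of the same families were named through the annotation of the study, which covers genes it had called in these libraries, so their directions are not independent of that choice. The family 3 gene *bgl3f* was upregulated in ∆*ypr2* in darkness (1.62 ± 0.13, adjusted p = 4.65e-06 in edgeR), with 123 and 120 counts in the wildtype and 391 and 475 in ∆*ypr2*. In light it had 0 and 1 counts in the wildtype and 2 and 2 in ∆*ypr2*. *xyl3b* did not pass in darkness (1.14 ± 0.35, adjusted p = 0.0167).

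Of the listed transporter genes, TR_69957, annotated as similar to a maltose permease, was upregulated in ∆*ypr2* in darkness (1.97 ± 0.12, adjusted p = 7.84e-07 in edgeR). It had 978 and 892 counts in the wildtype and 3882 and 4527 in ∆*ypr2*. TR_69957 was also named through the annotation of genes that the study had called in these libraries. Its change is thus not independent of that choice and is no fair contrast to TR_3405. The hexose transporter gene *hxt1* was at 1.00 ± 0.15 on the log2 scale (adjusted p = 0.000305), just under the limit of 2-fold. Both transporter genes were downregulated in light in each strain, *hxt1* with a log2 fold change of -1.55 ± 0.15 in the wildtype.

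Of 3 genes for the use of galactose and glucose inside the cell, *gal1*, *gal10* and *hxk1*, 0 were called by edgeR in any of the 5 comparisons. At an unadjusted p under 0.05 there were 2 in darkness between the strains (68.8% of all genes tested), 0 in light between the strains (17.3%), 2 for light in the wildtype (74.4%), 1 for light in ∆*ypr2* (62.6%) and 2 for the difference (58.8%). The galactokinase gene *gal1* had the largest change, -0.89 ± 0.06 for light in the wildtype (adjusted p = 7.11e-07 in edgeR). The hexokinase gene *hxk1* was at -0.02 ± 0.07 in the same comparison.

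To describe which transcripts followed the same pattern, each gene was correlated with 7341 others over log2(CPM + 0.5) of the 8 libraries. These libraries fall into light and darkness, and a correlation coefficient mostly reflects that split. The closest to TR_3405 were *cel61b* with r = 0.9995, *cel61a* with 0.9994, *cel5a* with 0.9992, *cip1* with 0.9989 and *cel7a* with 0.9985. For *cel1a* they were *cel7b* with 0.9997, *man5a*, a mannanase gene, with 0.9995, and *cel7a* with 0.9993. Both thus lay next to genes for enzymes of plant cell wall degradation. This was not particular to them, since with log2(CPM + 2) the closest gene to *cel3a* was *cel12a* (r = 0.9994). In light, *cel61a* and *cel61b* had 0 to 2 counts outside culture 2 of ∆*ypr2*, so their coefficients depend on the added constant and on that library.

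For *cel3a* the closest was TR_69944 with r = 0.9995, annotated as an alpha-xylosidase of family 31, for *cel3d* *ooc1* with 0.9991, for *cel1b* TR_79202 with 0.9994 and for *cel3e* TR_68028 with 0.9972. The closest to *cel3c* was TR_46819 with 0.9991, annotated as a hexose transporter similar to a cellodextrin transporter of *Neurospora crassa*. TR_46819 is the direct neighbour of *cel3d* in the RefSeq annotation, and its log2 fold changes were -8.27 for light in the wildtype and -1.36 for the deletion in darkness. It was named by its correlation over these same libraries, and its annotation came from genes that the study had called in them. Its changes are thus not independent of that choice. For *cel3b* the highest value was lower, 0.9931 with TR_74289, whose mean level was 44.1 CPM in both strains in light, 47.0 CPM in the wildtype in darkness and 33.7 CPM in ∆*ypr2* in darkness. TR_74289 thus shared with *cel3b* the lower level in ∆*ypr2* in darkness.

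Among the 8 genes themselves, *cel3b* had coefficients from -0.49 (with *cel3a*) to -0.28 (with *cel1b*). All other pairs were between 0.967 (*cel3c* with *cel3e*) and 0.999 (*cel3d* with *cel1b*), again over 8 libraries split by light.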

How the data were processed

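RNA-seq single reads of 8 libraries were processed by the authors with Bowtie2, SAMtools, bedtools and RSEM, per the labels and methods, whose versions were not stated in the sources read here. Deposited values are RSEM expected counts per annotated gene. The table carries the word FPKM, but library sums differed and 71.8 to 80.6% of values were whole numbers as written. After rounding to whole numbers, differences were tested, two-sided, by quasi-likelihood (edgeR 4.0.16, R 4.3.3; TMM scaling, 1 fit over all 8 libraries, a mean per group, 4 residual degrees of freedom, Benjamini-Hochberg adjustment over all genes tested). A gene was tested if 2 or more libraries had at least 0.5 CPM, which held for 8469 of 9143. limma 3.58.1 (voom) and DESeq2 1.42.0 were alternatives, as were other scalings, filters and thresholds. With 2 cultures against 2, an exact permutation test cannot go below p = 0.333, so none was made. Gene lengths and symbols came from RefSeq, assembly v2.0, with a length for 9115 genes. Reads of near-identical genes may have been divided between them by RSEM. Replicate libraries differed beyond counting noise (chi-square per degree of freedom 6.15 to 36.0).

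The 8 genes and the lists were chosen with earlier results of these data known. Named besides them are *ypr2*, the genes of each list, and the 5 genes closest to TR_3405 and 3 closest to each other gene by Pearson correlation, among those whose mean was 5 CPM or more, of which some are given here. TR_74289 and the neighbour TR_46819 are such genes. Of 10 proposed cellulose degrading enzymes 8 had a name in the sources and were kept. A list is described by its counts and median only.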

Additional observations from a re-analysis of the deposited data

Results flagged for a closer look

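The effect of the deletion on *cel3b* differed between light and darkness by the interaction test, with 0.9139 on the log2 scale (SE 0.0972, edgeR adjusted p = 6.68e-05). Upon deletion the transcript was at 515 CPM against 943 CPM in darkness and at 865 CPM against 841 CPM in light (group means, n = 2).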

How the results depend on the processing

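The same calls were compared under 21 alternative settings, 8 of which left out a library each. Of 824 values of the 8 genes, 798 kept direction and side of the threshold, 18 passed it in addition, 0 were lost and 8 changed sign. Of 315 values of the other named genes, 306 were unchanged in this sense and 9 passed in addition. In both comparisons of light with darkness, 7 genes were called under every setting, except 8 in ∆*ypr2* without a limit on the fold.

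For the deletion in darkness, 5 genes were called without a fold limit, against 52.4% of all genes tested. For the deletion in light, 1 was called at an unadjusted p under 0.01 (1.18% of all genes) and 1 by the exact test (1.02%). For the difference, 1 was called at an adjusted p under 0.05 (16.5% of all genes) and 1 without a fold limit (37.3%). These counts are for settings that kept both cultures of each group compared. Without culture 1 of ∆*ypr2* in darkness, the deletion effect there went beyond 2-fold for *cel1b* (-1.17) and *cel3d* (-1.20). The difference did so for TR_3405 (2.15), *cel1a* (1.39), *cel3d* (1.30) and *cel1b* (1.19). Without culture 2 of that group, TR_3405 was at 1.475 and the other values were within 2-fold. Of the cellulose degrading enzymes, 1 was called for the difference in the main fit, *cel5b* (-1.86 ± 0.23, adjusted p = 0.000148 in edgeR), against 14.3% of all genes. Alternatives for this list were added after seeing the data. At an adjusted p under 0.05, 3 were called, with *cel6a* (0.0398) and *cel61b* (0.0497) in addition. These had 181 and 32 counts in culture 2 of ∆*ypr2* in light, the library that stood apart, and 3 and 2 in culture 1.

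Values that changed sign were all uncalled and came from leaving out a library. With each library left out in turn, the deletion effect in light ranged from -0.07 to 0.116 for *cel1b*, from -0.071 to 0.314 for *cel3d* and from -0.014 to 0.093 for *cel3b*. In darkness *cel3e* ranged from -0.013 to 0.317, and its difference between the conditions ranged from -0.176 to 0.15. Causes were not tested.

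Replicate numbers are shared by label only, and deviations of same-numbered libraries correlated at -0.125 to 0.128 between groups. With the number as a block, the calls among the 8 genes were 0, 0, 7, 7 and 0 (deletion in darkness, deletion in light, light in the wildtype, light in ∆*ypr2* and the difference), and 1328 genes were called in darkness overall against 1332 without the block.

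Of the closest genes, 4 of 8 were the same with log2(CPM + 2). Quantile normalization moved the median of all genes for light to 0.12 in both strains, with *cel3b* at 0.00 in the wildtype. Levels by coding length were not run, since no coding lengths were given. Counts in light were few for *cel3a* (27 to 64) and *cel3d* (29 to 45), which limits the precision of their strain comparison there.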
